A study of Rattus norvegicus with 10 samples.

Results

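The genes described here encode the proteases that remove damaged or surplus proteins from mitochondria, with the prohibitin scaffold of the inner membrane. They are Clpp, Clpx, Lonp1, Afg3l2, Spg7, Yme1l1, Oma1, Htra2, Phb1 and Phb2, 10 genes in all. A probe set was assigned to a gene only where the platform annotation lists that symbol alone. By this rule 15 of the 31042 probe sets on the array were found, for 9 of the 14217 genes so named. Phb1 was not measured, because both probe sets that list it also list Phb1l2. The samples were hearts of male Fischer-344 rats on standard chow, an inbred strain used in aging research, with 5 arrays at 24 months (aged) and 5 at 6 months (adult). RNA was amplified over 2 rounds and hybridised to Affymetrix rat expression arrays. The sample protocols name whole hearts and the series design names ventricles, so which chambers were included is not settled. Since nothing in the labels ties each array to its own rat, the p-values cover spread between arrays that may be technical.

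Mitochondrial proteins are degraded inside the organelle. In the matrix, Lonp1 and the ClpXP complex of Clpx and Clpp unfold and cut soluble proteins. In the inner membrane, the m-AAA protease of Afg3l2 and Spg7 faces the matrix, and the i-AAA protease Yme1l1 faces the intermembrane space. Oma1 is an inner-membrane metallopeptidase that is activated by stress. Htra2 is a serine protease of the intermembrane space. Prohibitins 1 and 2 assemble into rings in the inner membrane that hold membrane proteins, the m-AAA protease among them. Because the heart is rich in mitochondria, these enzymes bear on how its respiratory chain is maintained.

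The deposited values have a median of 0 over the 10 arrays for each probe set and were taken as log2 signals centred on that median. The log base is not stated, and base 2 was read off the spacing of the values. The table therefore shows differences between arrays and no absolute level, and levels of different genes cannot be compared. A gene with several probe sets was given their mean. Array medians lay between -0.0097 and 0.0038 in aged hearts and between -0.0061 and 0.0093 in adult hearts. A gene is said to have fallen or risen where its adjusted p, by limma with Benjamini-Hochberg adjustment over all 14217 genes, was under 0.05. Heart tissue was checked by its cardiomyocyte markers. Probe sets were sorted into bright, middle and dim classes from the spacing of their values, an uncertain sign of brightness. All 7 measured markers have a bright probe set, where 11.4% of probe sets are bright. That share counts probe sets, and a gene can have several. A bright probe set was also present for 7 of 8 fibroblast markers, so brightness was not particular to cardiomyocytes.

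Clpp and Phb2 were lower in aged hearts, and no member was higher by the test. Clpp, the proteolytic barrel of ClpXP, fell by 0.26 on the log2 scale (SE 0.07, limma adjusted p = 0.0247, n = 5 per age), a change of -16.3%. Phb2, prohibitin 2, fell by 0.17 (SE 0.05, limma adjusted p = 0.0417, n = 5 per age), a change of -10.9%. Thus 2 of the 9 members fell and 0 rose, where 5.09% of all genes fell, 6.77% rose and 11.9% did either. The members' differences ran from -0.26 to 0.16 with a median of -0.10, where the median over all genes was -0.01. Lower means in aged hearts were seen in 7 of the 9 members, against 51.8% of all genes. At an unadjusted p under 0.05, 3 members were lower, Clpp, Phb2 and Clpx, and none higher. Over all genes this share was 12.0% lower and 26.3% in either direction. The ages overlapped in each of the 9 genes, whereas 4.78% of all genes lay wholly lower and 5.13% wholly higher in aged hearts.

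Of the 15 probe sets, 2 were called, both lower, where 3.6% of all probe sets were called lower, 4.42% higher and 8.03% in either direction. Those 2 are the only probe set of Clpp (limma adjusted p = 0.0325 over all probe sets) and the middle-class probe set of Lonp1. At an unadjusted p under 0.05 there were 7 in either direction, against 21.9% of all probe sets. Lower means were seen in 8 of the 15, against 56.0% of all probe sets. In 1 of the 15 every aged array lay below every adult array, against 3.65% of all probe sets. In 0 every aged array lay above, against 3.67%.

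**Figure D1:**
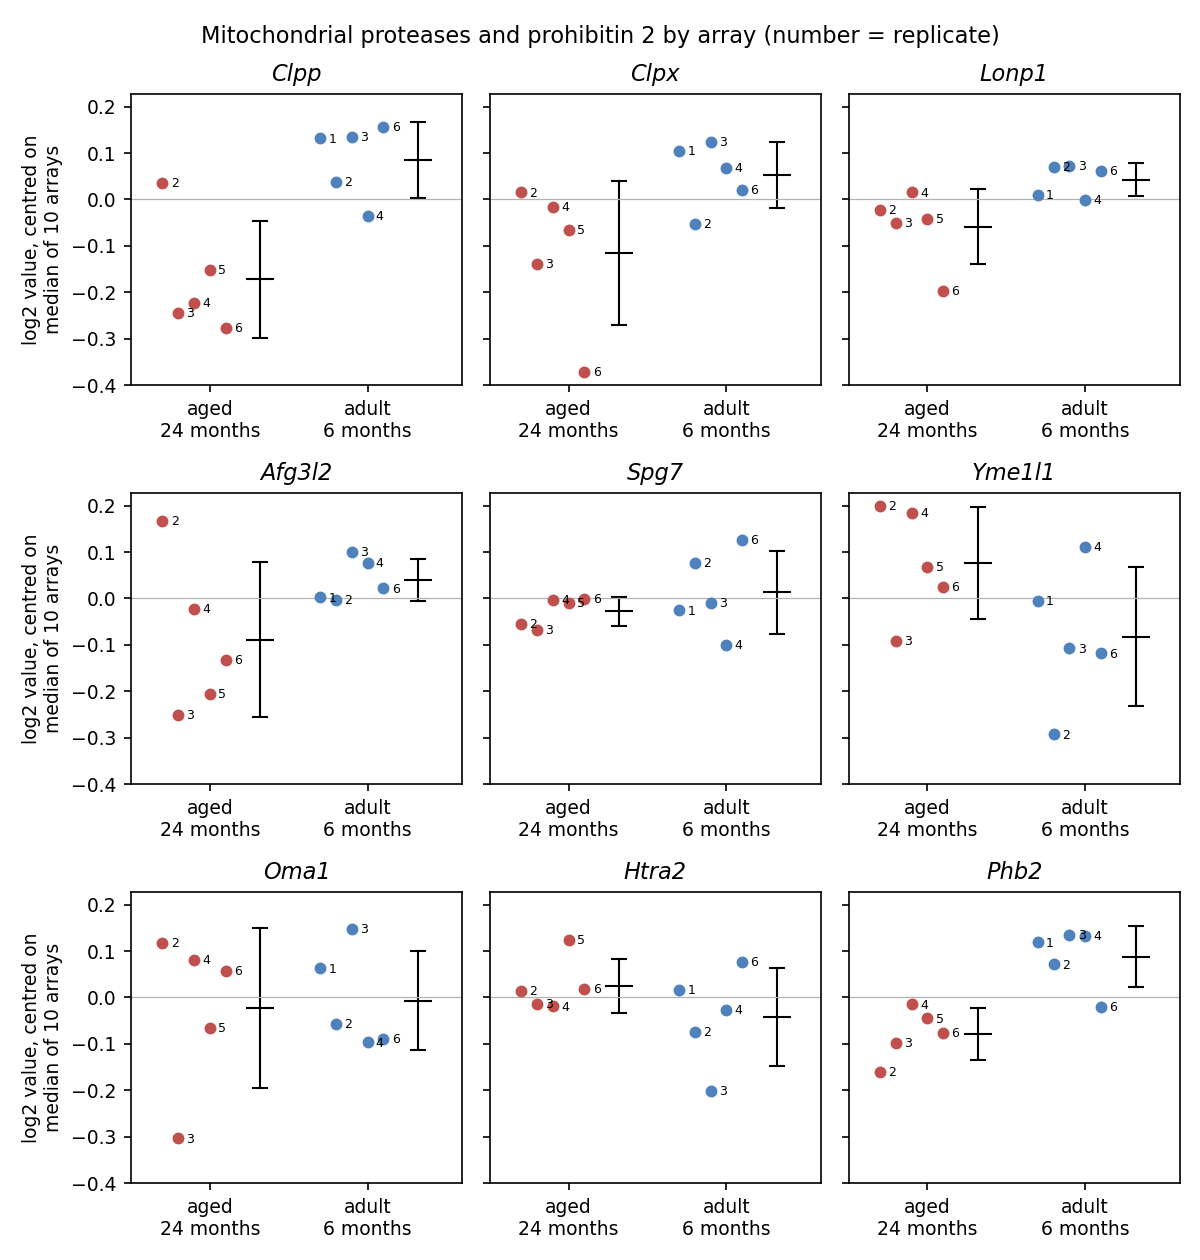
Log2 value of each of the 9 measured genes on each array, centred on the median of the 10 arrays; numbers beside the points are replicate numbers, and bars give the mean and SD of 5 arrays. In Clpp and Phb2, 4 of 5 aged arrays lie below the lowest adult array, and the points of the ages overlap in every gene.

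**Figure D2:**
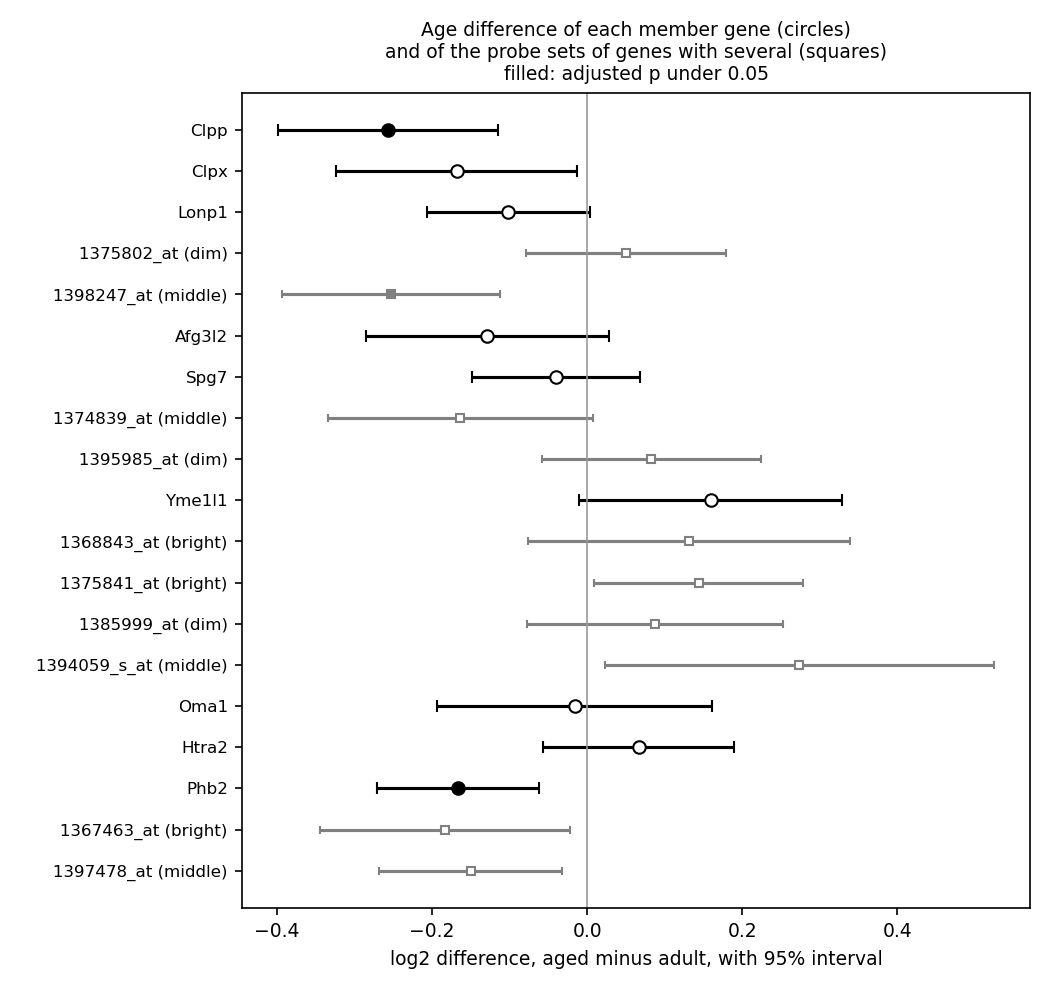
Log2 difference, aged minus adult, with its 95% interval from limma, for the 9 genes (circles) and for the probe sets of genes that have several (squares); filled symbols passed an adjusted p of 0.05. Clpp and Phb2 are the filled circles, and the middle-class probe set of Lonp1 is the filled square.

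The sequences before the starts of Clpp and Phb2, the genes that fell, are shown beside that of Yme1l1, whose mean was the most raised of the members. RefSeq promoters of build GRCr8, from 250 bases before to 50 after the start that the promoter table uses, were found for 7 of the 10 genes. For Phb2 that start is the first base of the annotated gene, and for Clpp and Yme1l1 it lies inside the annotated gene. Capitals mark the ETS-type motif CGGAAGT on either strand. All 3 lie on the plus strand, Clpp at chr9:1918789-1919088, Phb2 at chr4:159203698-159203997 and Yme1l1 at chr17:90195837-90196136.
Clpp: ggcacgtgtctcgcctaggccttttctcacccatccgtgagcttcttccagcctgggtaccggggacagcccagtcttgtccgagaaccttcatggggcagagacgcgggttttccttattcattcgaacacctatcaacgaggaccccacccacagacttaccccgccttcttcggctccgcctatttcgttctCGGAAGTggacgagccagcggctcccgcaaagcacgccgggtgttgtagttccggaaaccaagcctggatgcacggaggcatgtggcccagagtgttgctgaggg
Phb2: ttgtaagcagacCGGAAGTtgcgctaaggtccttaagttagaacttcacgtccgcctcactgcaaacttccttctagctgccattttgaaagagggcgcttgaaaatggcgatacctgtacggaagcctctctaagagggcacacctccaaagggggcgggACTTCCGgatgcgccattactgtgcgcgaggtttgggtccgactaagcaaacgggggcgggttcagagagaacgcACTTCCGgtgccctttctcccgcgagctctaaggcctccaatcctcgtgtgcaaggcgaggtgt
Yme1l1: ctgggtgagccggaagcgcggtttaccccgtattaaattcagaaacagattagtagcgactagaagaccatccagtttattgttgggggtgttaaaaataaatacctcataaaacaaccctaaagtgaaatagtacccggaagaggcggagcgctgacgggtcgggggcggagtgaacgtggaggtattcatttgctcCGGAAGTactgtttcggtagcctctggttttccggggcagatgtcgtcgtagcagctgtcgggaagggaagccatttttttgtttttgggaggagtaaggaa
The motif CGGAAGT was present in 3 of the 7 member promoters, those shown, and in 6.32% of the 33469 promoters of the table. Phb2 held 3 copies, and Clpp and Yme1l1 held 1 each. Counted from the promoter table's start, the copy in Clpp begins at position -55 and that in Yme1l1 at -52. A GC box (GGGCGG, either strand) was present in 6 of the 7, all but Clpp, and in 33.1% of all promoters. The palindromic E-box CACGTG was found in Clpp alone of the 7 (6.42% of all), and TGCGCA, the palindromic core of the NRF1 motif, in Spg7 alone (7.24%). The 4 motifs do not overlap one another in the 3 sequences shown. They were chosen after the expression values were seen, and a match describes letters, not binding.

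Within the ClpXP complex, both subunits had lower means in aged hearts. In GRCr8, by RefSeq, Clpp lies at chr9:1917305-1924706 and Clpx at chr8:74700602-74740244. Clpp had values of 0.04, -0.25, -0.22, -0.15 and -0.28 in aged replicates 2 to 6, against 0.13, 0.04, 0.13, -0.04 and 0.16 in adult replicates 1, 2, 3, 4 and 6. Aged replicate 2 stood at the level of adult replicate 2, and the other 4 aged arrays lay below every adult array. The exact two-sided permutation test over all arrangements of the arrays gave p = 0.0159 for Clpp, where 0.00794 is the smallest possible. The call of Clpp was lost without aged replicate 4 (0.0511), 5 (0.0525) or 6 (0.0627), or adult replicate 1 (0.050, just above the threshold), 3 (0.0646) or 6 (0.0567). Clpx, the unfoldase that feeds Clpp, had 0.02, -0.14, -0.02, -0.07 and -0.37 in aged hearts, against 0.11, -0.05, 0.12, 0.07 and 0.02 in adult hearts. Its lowest value was that of aged replicate 6. Clpx gave -0.17 (SE 0.07, 95% interval -0.32 to -0.01, limma adjusted p = 0.155, n = 5 per age) and did not pass. Without aged replicate 6 the difference was -0.10 (adjusted p = 0.305).

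Lonp1, the AAA+ protease that degrades oxidized matrix proteins, was measured by 2 probe sets whose age differences had opposite signs. The gene lies at chr9:1534581-1546908 in GRCr8. The middle-class probe set had -0.06, -0.19, -0.03, -0.09 and -0.24 in aged hearts, against 0.03, 0.09, 0.31, 0.08 and 0.15 in adult hearts. Every aged array lay below every adult array. This probe set fell by 0.25 (SE 0.06, limma adjusted p = 0.0306 over all probe sets, n = 5 per age). The dim probe set had 0.01, 0.09, 0.06, 0.01 and -0.15 in aged hearts, against -0.01, 0.05, -0.16, -0.08 and -0.03 in adult hearts. Its ages overlapped across most of their range, and its difference was 0.05 (SE 0.06, limma adjusted p = 0.697, n = 5 per age). The per-array difference of the dim minus the middle-class probe set was 0.12 ± 0.09 in aged hearts and -0.18 ± 0.18 in adult hearts (SD, n = 5 each). These values did not overlap between the ages (exact permutation p = 0.00794, the smallest possible, adjusted p = 0.0714 over the 9 pairs of probe sets of one gene, higher in 5 of 5 aged arrays). A single pair at that p could not pass over 9 pairs.

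As the mean of both probe sets, Lonp1 gave -0.10 (SE 0.05, limma adjusted p = 0.208, n = 5 per age). It passed when the dimmest class of probe sets was left out (-0.25, adjusted p = 0.0224), so the call for the gene rests on how its probe sets are combined. Without aged replicate 6, at -0.20 for the gene, the difference was -0.07 (adjusted p = 0.433). The call of the middle-class probe set was lost without aged replicate 3, 5 or 6 or adult replicate 2, 3 or 6 (adjusted p from 0.0546 to 0.0812).

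**Figure D3:**
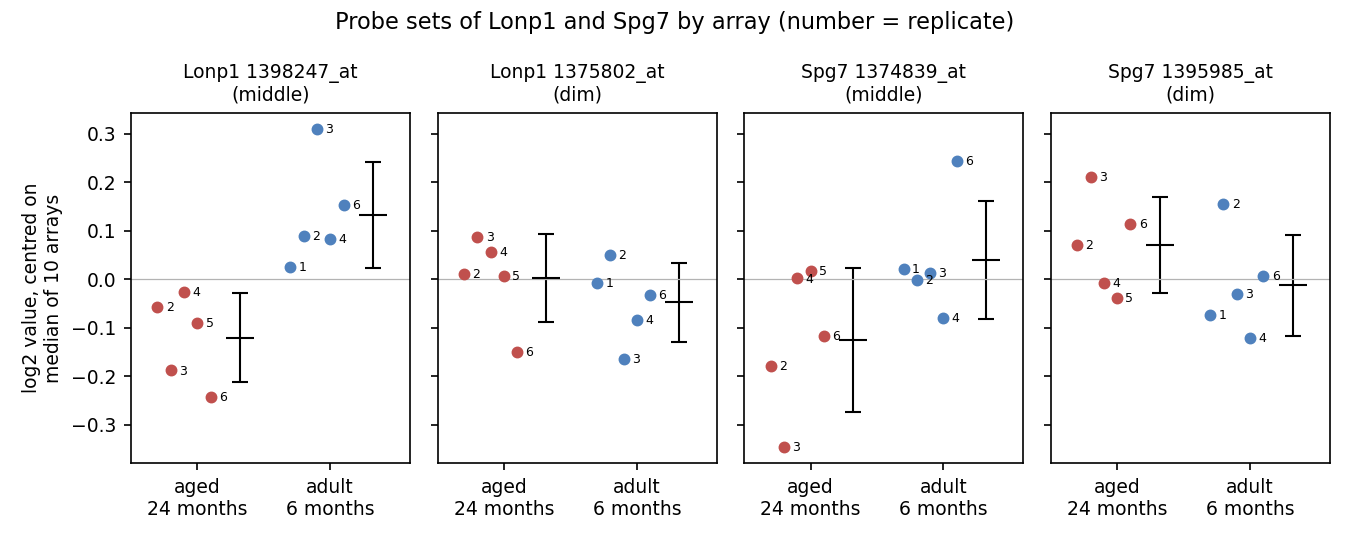
Log2 values of both probe sets of Lonp1 and of Spg7 on each array, centred on the median of the 10 arrays, with replicate numbers beside the points and the mean and SD of 5 arrays. The ages separate in the middle-class probe set of Lonp1 and overlap in the other 3 probe sets.

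The m-AAA protease, which matures a mitochondrial ribosomal protein and degrades unassembled inner-membrane proteins, showed no called change. Afg3l2, its principal subunit, had 0.17, -0.25, -0.02, -0.21 and -0.13 in aged hearts, against 0.00, 0.00, 0.10, 0.08 and 0.02 in adult hearts. Aged replicate 2 was above every adult array and the other 4 aged arrays were below every adult array. The difference was -0.13 (SE 0.07, 95% interval -0.29 to 0.03, limma adjusted p = 0.291, n = 5 per age), and without aged replicate 2 it was -0.19 and passed (adjusted p = 0.0416). Spg7, which encodes paraplegin, gave -0.04 (SE 0.05, 95% interval -0.15 to 0.07, limma adjusted p = 0.665, n = 5 per age). Its gene values lay between -0.07 and 0.00 in aged hearts and between -0.10 and 0.13 in adult hearts. Its probe sets had opposite signs, -0.16 in the middle-class one (adjusted p = 0.252) and 0.08 in the dim one (adjusted p = 0.522). The per-array difference between them changed by -0.25 with age (exact permutation p = 0.0635, adjusted p = 0.190), which did not pass. With the dimmest class left out, Spg7 gave -0.16 (adjusted p = 0.201). Without adult replicate 6 the difference was -0.01 (adjusted p = 0.912), and without adult replicate 2 it was -0.02 (0.842) and without adult replicate 4 -0.07 (0.410).

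None of the proteases that act on the intermembrane-space side, Yme1l1, Oma1 and Htra2, passed the test. Yme1l1, which cleaves the fusion protein Opa1 and lipid transfer proteins, had 0.20, -0.09, 0.18, 0.07 and 0.02 in aged hearts, against 0.00, -0.29, -0.11, 0.11 and -0.12 in adult hearts. Aged replicates 2 and 4 lay above every adult array, the other 3 aged arrays lay within the adult range, and adult replicate 2 was the lowest of the 10 arrays. The difference of 0.16 did not pass (SE 0.08, 95% interval -0.01 to 0.33, limma adjusted p = 0.222, n = 5 per age). All 4 of its probe sets had higher means in aged hearts, from 0.09 for the dim one to 0.27 for the middle-class one, with adjusted p from 0.184 to 0.571. The middle-class one has a suffix that marks possible cross-hybridization. Without it and others so marked, the Yme1l1 difference was 0.12 (limma adjusted p = 0.290). Of the 6 pairs among the 4 probe sets, none differed in their age difference after adjustment (lowest exact permutation p = 0.0397, adjusted p = 0.179), and at an unadjusted p under 0.05 there was 1. Probe sets of one gene share the RNA and the arrays and are not replicates. Adult replicate 2 also stood apart in the mean of 4 adipocyte markers, at 1.36 where the other adult arrays had at most -0.14. On adult replicate 2, Adipoq (2.99), Cidec (1.83) and Plin1 (1.21) were high, while Fabp4 was at 0.03. Without that array the Yme1l1 difference was 0.11 (adjusted p = 0.436). The part of adipocyte RNA in this was not tested.

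Oma1, the other peptidase that cleaves Opa1, had 0.12, -0.30, 0.08, -0.07 and 0.06 in aged hearts, against 0.06, -0.06, 0.15, -0.10 and -0.09 in adult hearts. The aged arrays spanned nearly the whole range of the adult arrays, and aged replicate 3 was the lowest of all. Its difference was -0.02 (SE 0.08, 95% interval -0.19 to 0.16, limma adjusted p = 0.931, n = 5 per age), with a sign that turned under quantile normalization (0.01) and without aged replicate 3 (0.05) or adult replicate 1 (0.00) or 3 (0.02). Htra2, which also binds inhibitors of apoptosis when it reaches the cytosol, had 0.01, -0.01, -0.02, 0.12 and 0.02 in aged hearts, against 0.02, -0.07, -0.20, -0.03 and 0.08 in adult hearts. Aged replicate 5 was the highest and adult replicate 3 the lowest of the 10. The difference was 0.07 (SE 0.06, 95% interval -0.06 to 0.19, limma adjusted p = 0.509, n = 5 per age), 0.04 without aged replicate 5 (adjusted p = 0.745) and 0.03 without adult replicate 3 (adjusted p = 0.820).

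Phb2, which besides its scaffold role serves as a receptor in mitophagy, had -0.16, -0.10, -0.02, -0.05 and -0.08 in aged hearts, against 0.12, 0.07, 0.14, 0.13 and -0.02 in adult hearts. The gene lies at chr4:159203948-159208561 in GRCr8. Only adult replicate 6 reached the aged range, slightly below aged replicate 4. Both of its probe sets had lower means in aged hearts. The bright probe set gave -0.18 (SE 0.07, limma adjusted p = 0.164 over all probe sets, n = 5 per age) and the middle-class one gave -0.15 (SE 0.05, limma adjusted p = 0.118, n = 5 per age). Neither passed alone, whereas their mean did, with an SD of 0.06 in aged and 0.07 in adult hearts. The per-array difference between both probe sets changed by -0.03 with age (exact permutation p = 0.754, adjusted p = 0.848). The exact permutation p of the gene was 0.0159, and 5 of 5 aged arrays lay below the adult mean. The call of Phb2 was near the threshold. It was lost without aged replicate 2, 3, 5 or 6 or adult replicate 1, 2, 3 or 4 (adjusted p from 0.0633 to 0.0997), with quantile normalization (0.0618), with array medians centred (0.0506) and with array weights (0.0524).

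Once each age's mean was removed, the genes whose values over the 10 arrays were most like those of Clpp were Smpx (Pearson r = 0.97), Uqcc6 (0.96) and Mrps28 (0.96). For Phb2 they were Slamf9 (0.90), Phf14 (0.90) and Clec2d2l2 (0.89). No gene of these 6 passed the age test (adjusted p from 0.0678 to 0.766). Partner genes were not the nearest to each other by this measure. Clpx ranked 1054 of 14216 genes in likeness to Clpp (r = 0.58), and Clpp 613 in likeness to Clpx. Spg7 ranked 8734 in likeness to Afg3l2 (r = -0.16), and Oma1 ranked 2369 in likeness to Yme1l1 (r = 0.45). All genes share the arrays, and each r rests on 5 arrays per age.

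The members were then set against a list of mitochondrial content, made of citrate synthase, outer-membrane and respiratory-chain genes and the ADP/ATP carrier gene Slc25a4. Where 5.09% of all genes fell and 6.77% rose, 5 of its 12 measured genes fell and none rose, with a median of -0.17. Among them were Cs (-0.28, limma adjusted p = 0.00622), Uqcrc1 (-0.26, 0.0171), Atp5f1a (-0.28, 0.0281) and Sdha (-0.28, 0.0306). The mean of the list lay between -0.26 and 0.03 on aged arrays and between 0.01 and 0.14 on adult arrays. Relative to that mean on the same array, Clpp was at -0.10 ± 0.15 in aged hearts and 0.01 ± 0.11 in adult hearts (SD, n = 5 each; exact permutation p = 0.214, adjusted p = 0.386 over the 9 members). Phb2 was at 0.00 ± 0.11 in aged hearts and 0.01 ± 0.05 in adult hearts (SD, n = 5 each; exact permutation p = 0.817, adjusted p = 0.920). Neither was therefore shown to differ from the list. The largest difference on this scale was that of Yme1l1, at 0.15 ± 0.06 in aged hearts and -0.16 ± 0.10 in adult hearts (SD, n = 5 each). Its values did not overlap between the ages (exact permutation p = 0.00794, the smallest possible, adjusted p = 0.0714, higher in 5 of 5 aged arrays). Htra2 differed by 0.22 (exact permutation p = 0.0159, adjusted p = 0.0714, above the adult mean in 5 of 5 aged arrays). The list's mean itself differed by -0.15, aged minus adult. A gene with no age difference would therefore stand higher in aged hearts by that amount on this scale. Without the list subtracted, Yme1l1 gave 0.16 and Htra2 0.07, neither called. No member passed after adjustment, and 2 had an unadjusted p under 0.05. The share of all genes with such a p on this scale was not computed. A single member at the smallest possible p could not pass over 9 members, since its adjusted p is 0.0714. Tomm40, an import pore gene named after its value was seen, was the fifth that fell (-0.23, 0.0377). The content list's count of fallen genes was 2 without adult replicate 3 or aged replicate 5 and 3 without adult replicate 4 or 6 or aged replicate 3. It was 1 without aged replicates 3 and 6.

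**Figure D4:**
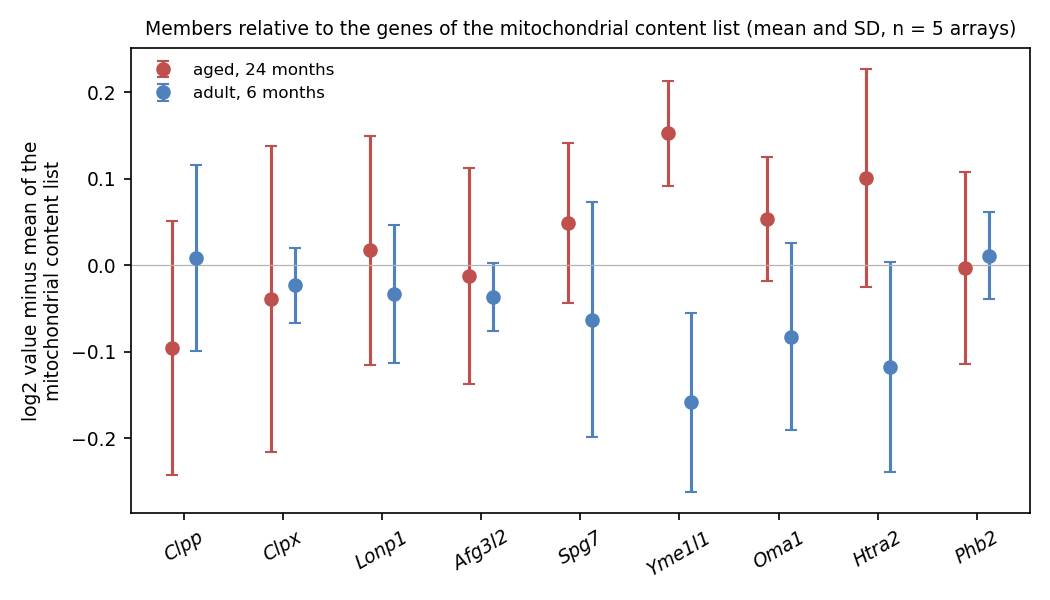
Log2 value of each member minus the mean of 12 genes of the mitochondrial content list on the same array, as mean and SD of 5 arrays per age. Yme1l1 has the largest gap between the ages, at 0.15 in aged and -0.16 in adult hearts, and Clpp and Phb2 have overlapping bars.

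Of 13 other mitochondrial peptidases, among them enzymes that cut targeting sequences, 3 fell and none rose, where 5.09% of all genes fell. Lower means were seen in 12 of the 13, against 51.8% of all genes, and their median was -0.13. Those that fell were Lactb (-0.31, limma adjusted p = 0.0130), a serine protease-like protein of the intermembrane space, Immp2l (-0.28, 0.0124), of the inner-membrane peptidase, and Metap1d (-0.24, 0.0129), a methionine aminopeptidase. In each of these 3 the ages did not overlap, against 4.78% of all genes in that direction. Pmpca of the processing peptidase gave -0.19 and did not pass (adjusted p = 0.0654), but did without aged replicate 2 (0.0287). The list's count of fallen genes was 5 without that array, 3 without any other single array and 1 without aged replicates 3 and 6.

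Of the 12 mitochondrial chaperones and their cofactors, which fold imported proteins or pull them into the matrix, 4 fell and none rose (median -0.20). Over all genes, 5.09% fell and 6.77% rose. Clpb, a disaggregase, fell by 0.41 (SE 0.08, limma adjusted p = 0.00754, n = 5 per age), with no overlap between the ages. Of all genes, 4.78% lay wholly lower in aged hearts. Dnaja3 (-0.33, adjusted p = 0.0252), Hspd1 (-0.28, 0.0421), which encodes the chaperonin Hsp60, and Trap1 (-0.26, 0.0462) also fell. Calls in this list depended on single arrays. The count was 1 without aged replicate 5 or adult replicate 1 or 3, 2 without aged replicate 3 or 6 or adult replicate 2 or 4, and 2 with array medians centred. Without aged replicates 3 and 6 it was 1. Clpb was the only call of this list that held in all alternative limma fits tried. The exact permutation test adjusted over all genes called no gene.

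Among 17 measured substrates and partners of these proteases, 4 fell and 1 rose (median -0.03), where 5.09% of all genes fell and 6.77% rose. Alas1, the heme synthesis enzyme that Clpx acts on, fell by 0.86 (SE 0.16, limma adjusted p = 0.00544, n = 5 per age). Pink1, the mitophagy kinase (-0.46, adjusted p = 0.00788), and Dele1, the stress relay that Oma1 cleaves (-0.37, 0.00231), fell as well. In these 3 the ages did not overlap, against 4.78% of all genes in that direction. Smdt1, an essential part of the calcium uniporter that the m-AAA protease degrades when unassembled, also fell (-0.19, 0.0280) and is named after its value was seen. That call was lost without aged replicate 4, 5 or 6 or adult replicate 1 or 2 (adjusted p from 0.0517 to 0.0732), which left 3 fallen genes. Prelid1, a lipid transfer protein that Yme1l1 degrades, rose by 0.33 (SE 0.07, limma adjusted p = 0.0102, n = 5 per age). Opa1, the shared substrate of Yme1l1 and Oma1, gave -0.03 (adjusted p = 0.791), or 0.02 without aged replicate 3, and Stoml2, the scaffold of Yme1l1, gave -0.28 without passing (0.0949), and both are named for their link to these proteases after their values were seen.

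Of 12 genes of the mitochondrial stress response, 2 rose and none fell (median 0.14), where 6.77% of all genes rose and 5.09% fell. Trib3, a pseudokinase, rose by 0.22 (SE 0.05, limma adjusted p = 0.0141, n = 5 per age), but did not pass without probe sets whose suffix marks possible cross-hybridization (0.17, adjusted p = 0.114). The transcription factor gene Atf4 rose by 0.25 (SE 0.07, limma adjusted p = 0.0435, n = 5 per age), a call lost without aged replicate 4, 5 or 6 or adult replicate 2, 3, 4 or 6 (adjusted p from 0.0664 to 0.0981). Ddit3 (0.43, adjusted p = 0.0529) and Atf5 (0.39, 0.0524) did not pass on all arrays. Both passed without aged replicate 2 or 3, and Ddit3 also without adult replicate 1 (adjusted p from 0.0153 to 0.0342). The count of risen genes was 4 with array weights or without the dim probe sets, 5 without aged replicate 2, 4 without aged replicate 3 and 1 without aged replicate 4, 5 or 6 or adult replicate 2, 3, 4 or 6.

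Markers of several other cell types moved over the same arrays, but none of 4 smooth muscle markers was called (median 0.01). Over all genes, 5.09% fell, 6.77% rose and 51.8% had lower means in aged hearts. In whole tissue, fewer cells of a type and less RNA per cell cannot be told apart. All 7 measured cardiomyocyte markers had lower means in aged hearts and 2 fell, Myh6 (-1.24) and Ryr2 (-0.55). The mean of all 7 lay between -0.29 and 0.02 on aged arrays and between 0.09 and 0.29 on adult arrays. Myh6 and Ryr2 had by far the largest differences in it. The other markers gave from -0.14 (Mybpc3) to -0.08 (Tnnt2), and none of them was called. All 9 macrophage markers had higher means and 4 rose, with array means between -0.09 and 0.97 in aged hearts and between -0.54 and -0.09 in adult hearts. All 8 fibroblast markers had higher means and 5 rose, with array means between 0.04 and 0.58 in aged hearts and between -0.58 and -0.04 in adult hearts. Of 8 lymphocyte markers 1 rose and 3 had lower means, and of 5 endothelial markers 2 rose and 1 had a lower mean. These counts depend on the scaling and on single arrays. The macrophage count was 8 with quantile normalization, 9 with array weights and 2 with robust eBayes, and the lymphocyte count was 2 with quantile normalization or without the dim probe sets. The macrophage count was 7 without aged replicate 2 or 3 and 2 without aged replicate 5 or 6 or adult replicate 2 or 3. The fibroblast count was 3 without aged replicate 5 or 6 or adult replicate 3. The lymphocyte count was 0 without adult replicate 2 or 3 and 2 without aged replicate 2, 3 or 4, and the endothelial count was 1 without adult replicate 3. The table has no absolute level, so no marker can be called absent. The part of these shifts in the values of Clpp, Phb2 and Lonp1 was not tested. Aged replicates 3 and 6 had the highest lymphocyte marker means. In aged replicate 3, Gzma (3.38), Nkg7 (1.87), Cd8a (0.85) and Cd2 (0.29) were positive, and Cd3e, Cd3d, Cd3g and Cd79b were negative. Without aged replicates 3 and 6, and so with fewer aged arrays, Clpp gave -0.20 (adjusted p = 0.130) and Phb2 -0.16 (0.136). The middle-class probe set of Lonp1 gave -0.19 (0.168), and none of the 3 passed.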

How the data were processed

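Gene expression was measured on 10 Affymetrix arrays, 5 aged and 5 adult hearts. The deposited table gives, for 31042 probe sets, values used here as log2, and each probe set as deposited has a median of 0 over the arrays (within 4.78e-07). The log base was inferred, and the software and normalization behind them were not given in the sources used here. Depth does not apply to arrays, and their number limits the precision.

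Probe sets were named by the platform annotation, with symbols updated by gene identifier through RefSeq (GRCr8). There were 20826 with 1 symbol (20758 matched to RefSeq), 436 with several and 9780 with none listed. Genes were means of their probe sets. The ages were tested in R 4.3.3 with limma 3.58.1 (lmFit and eBayes), over all genes and over all probe sets, with Benjamini-Hochberg adjustment, no covariate and two-sided tests. The fit was tested on simulated data. It recovered 19 of 50 genes changed by 0.25 on the log2 scale (38%) and 45 of 50 changed by 0.5 (90%). Noise was drawn independently for each gene, so these shares need not hold for the real arrays. A member that did not pass was not thereby shown to be unchanged. Single per-array differences were tested by exact two-sided permutation, and these tests were added after the values were seen. Python 3.11.15, numpy 2.4.6, pandas 2.3.3 and matplotlib 3.10.9 were used for tables and plots.

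All members were named, with up to 4 genes of smallest p from each other list, and further genes where said. Members and lists were chosen with earlier results of these data known. Classes of brightness were inferred from the numerical step of each probe set (bright 3543, middle 22542, dim 4912, unclear 45) and are uncertain. Alternatives were quantile normalization, centred array medians, array weights, robust eBayes, no dim probe sets, other probe set summaries, a replicate block, permutation and left-out arrays.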

Additional observations from a re-analysis of the deposited data

Results flagged for a closer look

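Single arrays stood apart within their age in 7 of 124 groups of 5 arrays tested by Dixon's ratio, where chance alone would mark about 1 in 20. Htra2 was at 0.12 in aged replicate 5, with the next aged array at 0.02, and its only probe set gives the same value. Sdha was at 0.26 in adult replicate 4, with the next adult array at 0.04. Trib3 was at -0.13 in adult replicate 4, with the next at -0.08. The substrates and partners averaged -0.19 in aged replicate 3, with the next aged array at -0.04. Endothelial markers averaged -0.059 in adult replicate 1, with the next adult array at -0.17. Adipocyte markers averaged 1.36 in adult replicate 2, with the next adult array at -0.14.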

How the results depend on the processing

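The count of 2 member genes past the threshold was 1 with quantile normalization, with array medians centred and with array weights. It was 0 to 2 when a single array was left out, 0 without aged replicates 3 and 6, and 0 by the exact permutation test adjusted over all genes. That test called 0 of all 14217 genes, since its smallest adjusted p was 0.0801, and at an unadjusted p under 0.05 it called 3502 genes and 4 members. The count of 2 member probe sets was 0 to 2 when a single array was left out and 0 without aged replicates 3 and 6. Leaving out the dimmest class gave 3 member genes, with Lonp1 added, of which fewer probe sets are the cause by construction. For the other changes the cause was not tested. With the replicate block, over the 8 arrays of the 4 numbers that both ages share, 0 member genes and 0 probe sets passed, and the same 8 arrays without the block also gave 0 and 0. Over all genes that block gave 1069 calls and the same arrays without it 929, against 1686 on all arrays. The numbers were not taken to pair the arrays, since correlations of same-numbered deviations ran from 0.0059 to 0.137 and 1 of 4 aged arrays was nearest to its own number. Oma1 turned positive with quantile normalization (0.0083), with the replicate block (0.012) and without aged replicate 3 (0.054), adult replicate 1 (0.0012), adult replicate 3 (0.022) or aged replicates 3 and 6 (0.051). With single arrays left out, its values ran from -0.051 to 0.054. Opa1, at -0.03, ran from -0.060 to 0.016 with single arrays left out, positive once aged replicate 3 was dropped, and was 0.027 when aged replicates 3 and 6 both were. Clpx had no value once probe sets with the suffix _s_at, _x_at or _a_at were left out, since its only probe set ends in _a_at. Cross-hybridization of that probe set was not tested. A tally was made over the members, their probe sets, the genes named from the other mitochondrial lists, Myh6 and Ryr2. In it 780 values kept direction and side of the threshold, 114 lost the call and 16 gained it. A further 14 changed sign, in Oma1, its probe set and Opa1. For the member genes the tally also set the exact permutation p, without adjustment, against 0.05. By that unadjusted p, Clpx (0.0317) and Lonp1 (0.0238) were counted as gained. The calls of Clpp and Phb2 (0.0159 each) were counted as kept by it. Adjusted over all genes, the same test called 0 genes.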

Other observations

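Both probe sets that list Phb1 also list Phb1l2, so their values belong to neither gene for certain. The first had -0.07, -0.25, -0.12, -0.10 and -0.13 in aged hearts, against 0.22, 0.10, 0.07, 0.11 and 0.10 in adult hearts. Its ages did not overlap, against 3.65% of all probe sets in that direction. Its difference was -0.26 (SE 0.05, limma adjusted p = 0.00982 over all probe sets, n = 5 per age). The second gave -0.39 (SE 0.14, limma adjusted p = 0.123, n = 5 per age), with values from -0.70 to 0.01 in aged and from -0.32 to 0.38 in adult hearts.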
